A study of Mus musculus with 22 samples.

Results

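Mice kept in complete darkness from birth were compared with mice kept on a normal 12 h light and 12 h dark cycle, in both cases at postnatal day 45. The measurement was of ribosome-bound RNA of the visual cortex. All mice were C57BL/6J that carried GFAP-cre (line 73.12) together with RPL22-HA, so that a Gfap promoter drives Cre and Cre switches on an HA-tagged copy of the ribosomal protein Rpl22. Cortex was fixed by perfusion, tagged ribosomes were pulled down with an antibody to HA, and poly(A) RNA was sequenced, so the pulldown holds mainly transcripts under translation in Gfap-lineage cells. The comparison used 4 dark-reared pulldown libraries (replicates 1, 4, 5 and 6) and 3 normally reared ones (replicates 1, 2 and 3), chosen by these labels alone. These are 7 of the 22 libraries in the series. One library of whole-tissue RNA before pulldown (the input) stood beside each group, which brings the set to 9. Dark-reared replicate 2 was not analysed here. The labels call the replicates biological but do not say how many animals each one holds.

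Astrocytes take up glutamate and potassium released by active neurons, supply lactate, lipids and glutamine, and shape synapses through secreted proteins. Visual experience drives cortical neurons, and strong synaptic and calcium signals switch on immediate early genes within minutes. The first of these encode transcription factors such as Fos and Egr1. Others encode effectors at synapses, or phosphatases and RNA-decay factors that shut the response down. Rearing in the dark delays the maturation of the visual cortex and prolongs its sensitive period. Growth factors, neuromodulators and injury induce several of the same genes in astrocytes.

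Values are FPKM, fragment numbers scaled to transcript length and to library size, and differences are dark minus normal rearing on the log2(FPKM + 1) scale, which understates changes of low genes. Depth was estimated from the smallest steps of the FPKM values at 28.2 to 40.8 M reads in the 7 pulldown libraries and at 32.4 and 26.9 M in the normal and dark inputs. Between 14981 and 15543 genes were above 0 in a pulldown. All 22 astrocyte markers were higher in the pulldown than in the input, with a median log2 ratio of 3.09 in the normally reared group and 2.80 in the dark-reared group, so the labelled cell type was present. The mean level of these markers overlapped between the groups, at 8.91 to 9.02 and 8.94 to 9.08 on the log2 scale. RNA of genes that mark other cells was present too. The summed level of 12 pan-neuronal markers was 554, 691 and 1226 FPKM in the normally reared pulldowns and 389, 532, 479 and 537 in the dark-reared ones, against 3295 and 3462 in the inputs. The mean over all neuron markers overlapped between the groups, at 3.79, 4.21 and 4.66 against 3.34, 3.70, 3.58 and 3.83 on the log2 scale (exact permutation test, 2-sided, p = 0.114, where 4 against 3 libraries cannot go below 0.0571). Normally reared replicate 3 stood apart: its ribosomal RNA precursor Rn45s was at 142 FPKM against 5355 to 14292 in the other pulldowns, and its values correlated most closely with the input (r = 0.930). All 12 oligodendrocyte markers were at or above 0.75 of the input. Blood markers were at 0 to 1.2 FPKM, Ptprc among them at 0 in every pulldown, and the microglial markers C1qa, C1qb and C1qc at 1.2 to 5.2 FPKM.

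Fos fell in the dark. Across 11510 genes with a mean above 1 FPKM it was the only gene past an adjusted p of 0.05 (limma with Benjamini-Hochberg adjustment), which is 0.00869% of those tested, and no gene passed in the higher direction. At an unadjusted p under 0.05, 1563 genes (13.6%) differed in either direction, of which 1286 genes were lower, 11.2% of those tested, and 277 were higher, 2.41%. A gene is called separated below when all 4 dark-reared libraries lay on one side of all 3 normally reared ones. By that rule 1038 genes were separated downwards, 9.02% of those tested, and 312 upwards, 2.71%. If the rearing labels were dealt at random, a gene would be separated in either direction with a probability of at most 0.0571, split evenly between the directions. Over all tested genes the upward share was no larger than its part of that probability. Upward separation by itself is therefore weak evidence for a single gene. The table leaned downwards as a whole: 65.3% of the genes had a negative difference, with a median of -0.08. Without normally reared replicate 3, 1268 of 11404 genes were separated downwards (11.1%) and 554 upwards (4.86%). With 1 library fewer, separation is easier to reach: leaving out another library in turn gave 9.69% to 25.8% downwards and 3.6% to 7.31% upwards, with 25.8% and 5.13% without normally reared replicate 1.

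The promoters of 6 activity-induced genes that were lower in the dark are shown because calcium signalling is known to reach several of them through CREB, a factor that binds the cAMP response element. The windows run 250 bases upstream of the RefSeq start on assembly GRCm38.p6, on the strand of the gene. Capitals mark the core motif TGACG or its reverse complement CGTCA, and the full element TGACGTCA holds both in overlap.
Fos (chr12:85473640-85473889, plus strand): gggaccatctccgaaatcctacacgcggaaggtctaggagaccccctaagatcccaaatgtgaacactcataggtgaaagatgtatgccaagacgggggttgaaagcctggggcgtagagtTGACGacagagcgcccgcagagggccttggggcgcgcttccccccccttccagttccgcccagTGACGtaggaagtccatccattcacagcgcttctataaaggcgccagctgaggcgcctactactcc
Dusp1 (chr17:26508473-26508722, minus strand): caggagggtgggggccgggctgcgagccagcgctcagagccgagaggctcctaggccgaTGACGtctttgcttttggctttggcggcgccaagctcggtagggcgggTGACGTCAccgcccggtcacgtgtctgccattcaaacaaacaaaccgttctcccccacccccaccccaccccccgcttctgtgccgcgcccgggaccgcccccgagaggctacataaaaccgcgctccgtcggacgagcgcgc
Junb (chr8:84978749-84978998, minus strand): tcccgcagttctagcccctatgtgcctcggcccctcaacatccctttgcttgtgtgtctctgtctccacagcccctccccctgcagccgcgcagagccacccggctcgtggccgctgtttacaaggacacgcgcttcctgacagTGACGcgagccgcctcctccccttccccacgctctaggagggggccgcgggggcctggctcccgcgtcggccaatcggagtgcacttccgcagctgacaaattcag
Npas4 (chr19:4989972-4990221, minus strand): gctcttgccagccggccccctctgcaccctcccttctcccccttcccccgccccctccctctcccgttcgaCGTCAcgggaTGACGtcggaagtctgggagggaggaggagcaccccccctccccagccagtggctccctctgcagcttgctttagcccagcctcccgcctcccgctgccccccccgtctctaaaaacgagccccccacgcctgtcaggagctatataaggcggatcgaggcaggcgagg
Btg2 (chr1:134079156-134079405, minus strand): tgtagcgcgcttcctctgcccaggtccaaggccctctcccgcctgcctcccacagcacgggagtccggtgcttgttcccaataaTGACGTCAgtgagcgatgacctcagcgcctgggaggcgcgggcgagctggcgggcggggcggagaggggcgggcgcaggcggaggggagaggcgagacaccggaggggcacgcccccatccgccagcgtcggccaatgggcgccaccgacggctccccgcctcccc
Nr4a1 (chr15:101266596-101266845, plus strand): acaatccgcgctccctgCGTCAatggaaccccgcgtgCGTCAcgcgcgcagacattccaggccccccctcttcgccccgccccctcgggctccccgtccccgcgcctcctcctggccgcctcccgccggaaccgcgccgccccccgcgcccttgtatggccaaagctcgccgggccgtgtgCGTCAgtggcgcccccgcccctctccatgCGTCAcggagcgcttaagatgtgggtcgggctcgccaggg
The 6 genes were picked by hand and every window printed holds a motif, so the counts describe these windows only. The windows held between 1 and 4 core motifs each. The motif nearest to the start lay 35 bases upstream in Nr4a1 and 61 bases upstream in Fos. Dusp1 and Btg2 held the full element. Of 32851 RefSeq promoter windows of this length, 17.8% held a core motif and 1.55% the full element. Counting any window of a gene, 31.5% of 8889 tested genes held a core motif, against 11 of 16 immediate early transcription factors, 8 of 11 activity-induced effectors, 8 of 15 feedback regulators, 3 of 18 postsynaptic scaffold genes and 2 of 18 astrocyte markers. The full element was held by 3.1% of the tested genes and by 0 of 16 immediate early transcription factors. It was held by 3 of 11 effectors, 4 of 15 feedback regulators, 0 of 18 scaffold genes and 0 of 18 astrocyte markers. A match of letters is a description and not a binding site.

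Immediate early transcription factors were lower as a group. Fos (transcript NM_010234, chr12:85473890-85477273, plus strand), the partner of Jun in the AP-1 factor, was at 32.7, 54.2 and 80.7 FPKM in the normally reared pulldowns and at 7.2, 6.2, 8.2 and 8.9 in the dark-reared ones. The groups were parted widely, with the lowest normally reared library at 3.67 times the highest dark-reared one. The mean went from 55.9 ± 24.0 (SD, n = 3) to 7.63 ± 1.18 (SD, n = 4), a fall by 2.64 ± 0.26 (SE) on the log2 scale (limma adjusted p = 0.031). The input went the same way, from 118 to 25.7 FPKM. In such bulk libraries fewer cells of a type and less RNA per cell cannot be told apart. The call was lost when any dark-reared library or normally reared replicate 2 was left out, while the log2 difference stayed between -2.97 and -2.33.

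Junb, which also forms AP-1, was at 34.7, 45.9 and 97.2 FPKM in normal rearing and at 12.4, 16.4, 23.4 and 22.2 in the dark (log2 difference -1.52 ± 0.33 SE, limma adjusted p = 0.339). Npas4, a factor induced by calcium entry in neurons, was at 7.2, 7.6 and 22.4 against 3.0, 4.0, 2.3 and 1.9 FPKM. Egr1, a zinc finger factor, was at 32.3, 67.1 and 114.7 against 9.4, 25.9, 19.5 and 30.6 FPKM, so its groups were parted by 1.7 FPKM only. None of these passed the adjusted threshold, and each was separated. Nr4a1, a nuclear receptor without a known ligand, overlapped between the groups, at 27.6, 68.1 and 75 against 5.9, 15.1, 15.9 and 39.8 FPKM, because dark-reared replicate 6 was above normally reared replicate 1. Of the 25 listed factors 20 were tested, 19 had a negative difference and 7 were separated downwards (Fos, Npas4, Nfil3, Junb, Ier2, Egr1 and Egr2), with none upwards. Over all genes 65.3% had a negative difference and 9.02% were separated downwards. Below 0.75 of the input, where all but 2 of the 20 lay, these shares were 88.0% and 15.9%. The factors' median difference was -1.07 against -0.08 over all genes, and in the input pair it was -1.20. Without normally reared replicate 3 the median was -0.76, with 17 negative and 7 separated downwards. The count moved with 2 libraries: without normally reared replicate 1, 17 of 20 were separated downwards, against 25.8% of all genes, and without dark-reared replicate 6, 14 of 20, against 13.2%. The exceptions among Fos and Jun family members were Jun (-0.06) and Jund (0.10).

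**Figure D1:**
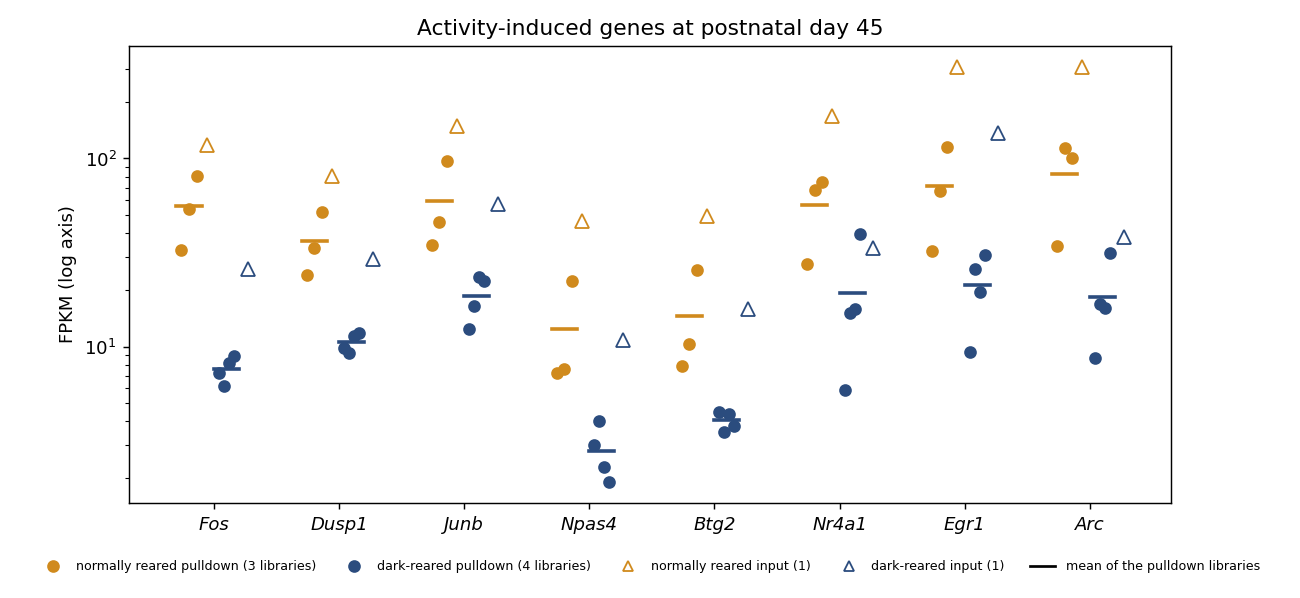
Levels of 8 activity-induced genes in FPKM on a log axis, with a filled point for each pulldown library, a bar for the mean and an open triangle for the single input of each group. Fos, Dusp1, Junb, Npas4, Btg2, Egr1 and Arc do not overlap between the groups, Nr4a1 does, and the dark-reared input lies below the normal input for all 8.

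Regulators that end the response were lower on average as well. Dusp1, a phosphatase that switches off MAP kinases, was at 24.0, 33.4 and 52.1 FPKM in normal rearing and at 9.8, 9.2, 11.4 and 11.8 in the dark. The groups were far apart but the log2 difference of -1.64 ± 0.22 (SE) missed the threshold (limma adjusted p = 0.231). Dusp1 passed together with Fos when normally reared replicate 3 was left out (log2 difference -1.35). Btg2, which promotes mRNA deadenylation and slows proliferation, was at 7.9, 10.3 and 25.6 against 4.5, 3.5, 4.4 and 3.8 FPKM. Dusp6, which acts on ERK, was at 14.6, 16.0 and 26.9 against 9.7, 12.0, 9.8 and 12.0 FPKM. Of 19 tested members 18 had a negative difference, with a median of -0.41, and 8 were separated downwards. Over all genes these shares were 65.3% and 9.02%. Below 0.75 of the input, where all but 7 of the 19 lay, they were 88.0% and 15.9%, and at or above it 49.0% and 4.06%. The list's median was -0.26 over 18 genes without normally reared replicate 3. Without normally reared replicate 1, 14 of 19 were separated, against 25.8% of all genes.

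A few of these regulators were more abundant in the pulldown than in the input. The Sprouty genes, feedback inhibitors of FGF receptor signalling, are the main case. Spry1 was at 4.9, 5.3 and 6.0 FPKM in normal rearing and at 2.6, 3.4, 3.7 and 4.8 in the dark (log2 difference -0.49 ± 0.16 SE, limma adjusted p = 0.339). Spry4 was at 4.2, 5.8 and 5.3 against 4.0, 4.1, 3.8 and 3.7, and Spry2 at 35.3, 33.9 and 37.8 against 29.2, 31.4, 33.8 and 29.7 FPKM. All 3 were separated, but each by 0.1 FPKM, the last decimal of the table. Zfp36l1 and Zfp36l2, which send mRNAs with AU-rich elements to decay, were at a mean of 22.9 and 23.5 FPKM in normal rearing and 17.2 and 16.5 in the dark, with overlap. Cyr61, a matricellular protein counted among the effectors, was at 29.9, 68.8 and 50.9 against 14.6, 16.7, 23.4 and 36.1 FPKM and overlapped through dark-reared replicate 6. Its row is the one row of the table given to more than 1 decimal.

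Effectors at synapses and in secretion were lower too. Arc, which drives removal of AMPA receptors from synapses, was at 34.3, 114.4 and 100.1 FPKM in normal rearing and at 8.7, 16.8, 16.0 and 31.5 in the dark, where dark-reared replicate 6 came close to normally reared replicate 1. Its log2 difference was -2.08 ± 0.47 (SE, limma adjusted p = 0.339). Nptx2, a secreted pentraxin that clusters AMPA receptors, was at 8.6, 14.5 and 22.0 against 2.0, 5.2, 4.8 and 6.9 FPKM. Bdnf, the ligand of TrkB, was low but separated, at 1.4, 2.4 and 3.5 against 0.4, 0.7, 0.7 and 0.8 FPKM. Of 18 tested effectors 17 had a negative difference, with a median of -0.96, and 10 were separated downwards (Bdnf, Arc, Rgs2, Pcsk1, Nptx2, Scg2, Vgf, Plk2, Gadd45b and Nrn1). Over all genes 65.3% had a negative difference and 9.02% were separated downwards. Below 0.75 of the input, where all but 4 of the 18 lay, these shares were 88.0% and 15.9%. In the input pair 14 of the 18 effectors were lower in the dark, with a median of -0.56, 7 of them more than 2-fold, and none was more than 2-fold higher. Arc went from 308 to 38.4 FPKM and Gadd45b from 16.8 to 3.2, whereas Nrn1 went from 133 to 224, Rgs2 from 17.6 to 22.3 and Scg2 from 72.2 to 78.4.

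Pan-neuronal, excitatory neuron and postsynaptic scaffold lists were lower in the dark-reared pulldowns, while the interneuron list differed little. All 12 pan-neuronal markers had a negative difference, with a median of -0.84. Over all genes 65.3% had a negative difference, and below 0.75 of the input 88.0%. Of the 12 markers 6 were separated, against 9.02% of all genes and 15.9% of those below 0.75 of the input. Their median was -0.49 without normally reared replicate 3. Separation held for 10 without normally reared replicate 1 or without dark-reared replicate 6, against 25.8% and 13.2% of all genes. Excitatory neuron markers had a median of -0.77, with 10 of 11 negative and 4 separated, against the same shares. Their median was -0.34 without normally reared replicate 3, and 10 were separated without normally reared replicate 1, against 25.8% of all genes. Interneuron markers had a median of -0.14 (0.02 with quantile normalization), with 5 of 8 negative and none separated. Without normally reared replicate 1, 3 were separated, against 25.8% of all genes. Among 23 postsynaptic scaffold genes 22 had a negative difference, with a median of -0.79, and 12 were separated, against the same 9.02% and 15.9%. Without normally reared replicate 1, 21 were separated, against 25.8% of all genes. With the neuron marker level as a covariate the median was -0.17. Shank1, which anchors the postsynaptic density, was at 8.9, 16.6 and 13.1 FPKM against 5.4, 5.7, 3.4 and 6.6. Camk2a, the kinase most abundant in excitatory synapses, was at 136, 248 and 370 against 89.3, 125, 93.6 and 134 FPKM, parted by 2.4 FPKM. Homer3 was the exception, at 18.0 ± 2.5 (SD, n = 3) against 19.4 ± 0.69 (SD, n = 4) FPKM, and it was the one member above its input. Among genes with the smallest p in the lower direction were 3 more of the synapse. Rims1, a scaffold of the presynaptic active zone, was at 7.1, 8.8 and 10.6 FPKM against 2.9, 4.3, 4.2 and 5.3. Rph3a, a synaptic vesicle protein, was at 14.8, 24.6 and 30.0 against 7.3, 11.3, 9.5 and 10.9, and Sipa1l1, a regulator of dendritic spines, at 10.4, 17 and 18.9 against 5.6, 7.0, 5.7 and 8.5. The groups did not overlap in any of the 3. Cabp1, Pip5k1c, Carmil2, Unc80, Chd3 and Ppp1r37 were also separated, with log2 differences of -0.98 to -0.42.

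The activity-induced genes and the neuron markers moved together in part. The mean of the immediate early factors minus the mean of the neuron markers was -0.81, -0.73 and -0.56 in normal rearing and -1.19, -1.16, -1.06 and -1.0 in the dark, with no overlap. Fos per unit of Slc17a7, the vesicular glutamate transporter of excitatory neurons, was 0.444, 0.577 and 0.423 in normal rearing and 0.121, 0.0752, 0.138 and 0.124 in the dark. In the inputs it was 0.200 against 0.0277, but Slc17a7 itself went from 590.3 to 928.8 FPKM there. Per unit of Camk2a, Fos was at 0.2399, 0.2185 and 0.2182 against 0.0806, 0.0498, 0.0876 and 0.0665. In the inputs that ratio was 0.1707 against 0.0402. One pair of libraries was matched in neuron markers: normally reared replicate 1 at 3.79 and dark-reared replicate 6 at 3.83. In that pair Fos was at 32.7 and 8.9 FPKM, while 9 of 20 immediate early factors were lower in the dark-reared library and their median difference was 0.04. Against dark-reared replicate 4, at 3.70, 16 of 20 were lower with a median of -0.36. With the neuron marker level as a covariate no gene was called, Fos stood at -1.94 (limma adjusted p = 0.135), and the factors' median went to -0.15 with 12 of 20 negative. The part of neuronal RNA in the result was not tested beyond these values.

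**Figure D2:**
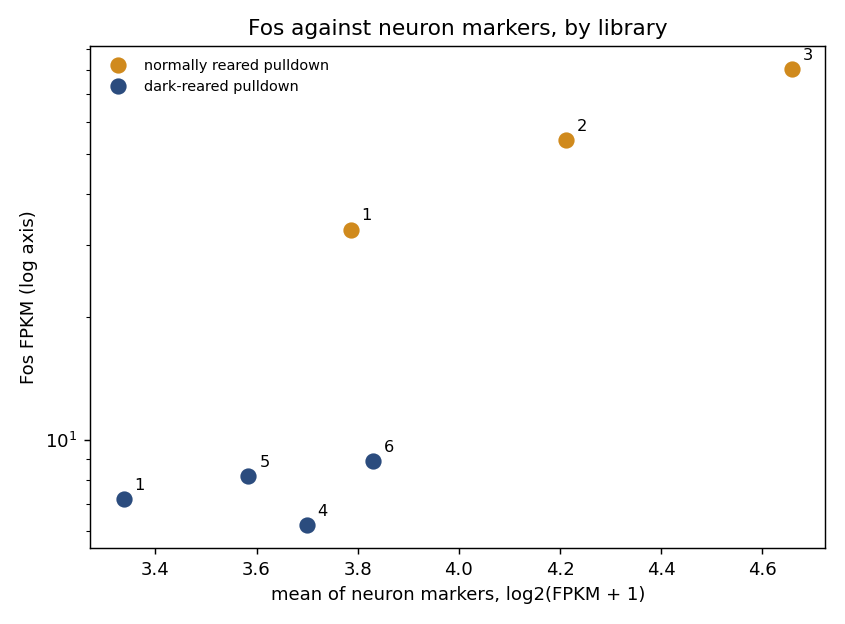
Fos in FPKM on a log axis against the mean of the neuron markers in log2(FPKM + 1), 1 numbered point per pulldown library. Normally reared replicate 1 and dark-reared replicates 4 and 6 lie at 3.79, 3.70 and 3.83 on the horizontal axis, and at 32.7, 6.2 and 8.9 FPKM of Fos.

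Genes split by their level in the pulldown. Of 6680 genes at or above 0.75 of the input, 49.0% had a negative difference, 271 were separated downwards (4.06%) and 299 upwards (4.48%). Of 4830 genes below that ratio, 88.0% had a negative difference, 767 were separated downwards (15.9%) and 13 upwards (0.269%). Most activity-induced genes lay in the second set. Of 57 tested members of the 3 lists, 44 were below the ratio, with a median of -0.98, against -0.23 for all 4830 genes. The other 13 had a median of -0.30, with 12 negative and 3 separated downwards, the Sprouty genes, against a median of 0.00 for all 6680.

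**Figure D3:**
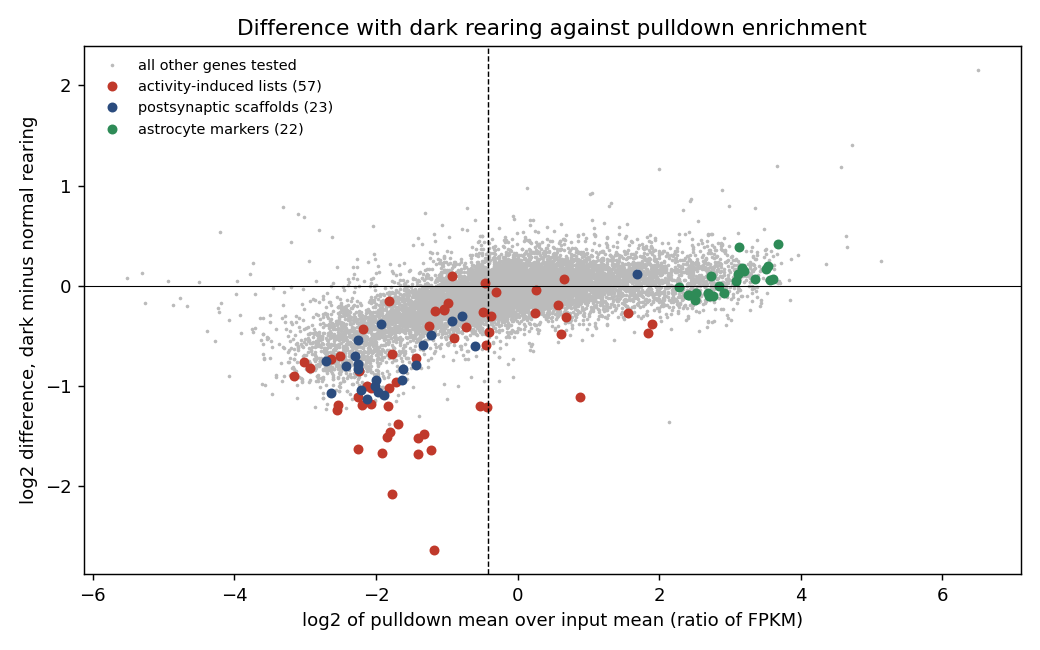
Difference between dark and normal rearing (vertical, log2) against the ratio of the pulldown mean to the input mean (horizontal, log2) for 11504 genes, leaving out 6 at 0 in both inputs, with the dashed line at a ratio of 0.75. The 57 activity-induced genes (median -0.73) and the 23 postsynaptic scaffolds (median -0.79) lie mostly left of the line and below 0, and the 22 astrocyte markers lie to the right around 0.

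Transcript length ran along with the difference. Over 4 equal groups of tested transcripts, from the shortest to the longest, the median difference was 0.07, -0.05, -0.12 and -0.19 in the pulldowns and 0.57, 0.22, -0.03 and -0.43 in the single input pair. Nuclear genes of the respiratory chain, which encode the mitochondrial electron transport complexes, had an input median of 1.04 and a pulldown median of 0.22, with 5 of 79 negative and 1 separated upwards. That pulldown median was 0.09 without normally reared replicate 3, with 13 negative, and 0.05 with the neuron marker level as a covariate. The count separated upwards was 37 without dark-reared replicate 4, against 6.79% of all genes, and 13 without normally reared replicate 2, against 7.31%. Cytosolic ribosomal proteins had medians of 1.44 and 0.09, and the second turned to -0.03 without normally reared replicate 3 and to -0.04 with the neuron marker covariate. The part of transcript length in these values was not tested.

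No gene was called higher in the dark, and the genes named here are those with the smallest p in that direction. Most were enriched in the pulldown. Nnat, an imprinted membrane proteolipid, was at 223, 220 and 139 FPKM in normal rearing and at 365, 284, 326 and 350 in the dark (log2 difference 0.80 ± 0.17 SE, limma adjusted p = 0.339, 0 of 11510 genes past it and 277 at an unadjusted p under 0.05). Its input went from 59.0 to 156 FPKM. Mlc1, a membrane protein of astrocyte endfeet that is mutated in a leukodystrophy with cysts, was at 944, 819 and 860 against 1239, 1124, 1078 and 1121 FPKM, and its input went from 70.3 to 160. The dark input was higher for the astrocyte markers as a list, with a median difference of 0.48 and 3 of 22 lower. Id3, an inhibitor of basic helix-loop-helix factors and a target of BMP signals, was at 220, 186 and 181 against 290, 244, 271 and 249 FPKM. Nnat, Mlc1 and Id3 were separated, by differences of 0.38 to 0.80 on the log2 scale. Psph, the last enzyme of serine synthesis, was at 50.5, 53.7 and 44.7 against 84.8, 63.6, 66.1 and 71.8 FPKM. Orai1, the pore of store-operated calcium entry, was at 12.0, 11.8 and 10.2 against 15.9, 15, 15.6 and 14.9 FPKM. Other separated genes of this kind were S100a6, a calcium-binding protein, Pdpn, a mucin-type glycoprotein, Tspan15, Trim47, Kcne1l and Slc2a4, the insulin-responsive glucose transporter, with log2 differences of 0.38 to 0.48. Pltp, a phospholipid transfer protein, Igfbpl1 and Tnni1 were separated with differences of 0.66, 0.78 and 0.54, and Pltp was the one gene of the 15 below 0.75 of its input.

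**Figure D4:**
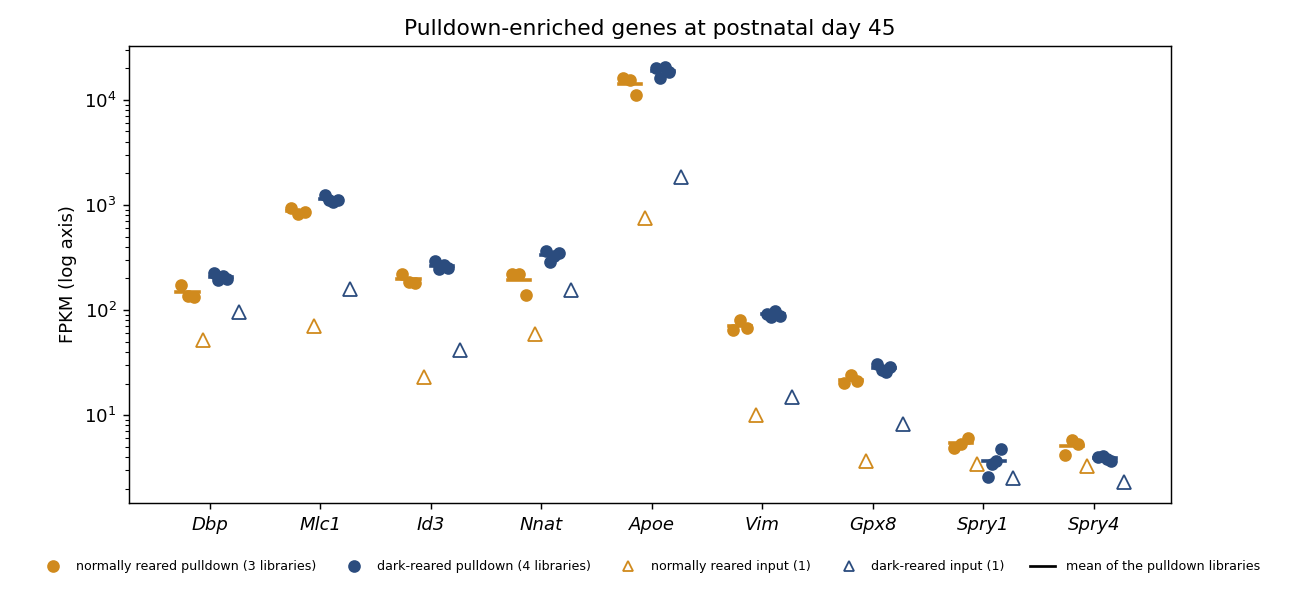
Levels of 9 genes that are higher in the pulldown than in the input, in FPKM on a log axis, with a point for each pulldown library, a bar for the mean and an open triangle for the input of each group. Dbp, Mlc1, Id3, Nnat, Apoe, Vim and Gpx8 are higher in all 4 dark-reared libraries, and Spry1 and Spry4 are lower in all 4.

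Astrocyte identity differed little. The 22 markers had a median difference of 0.05, with 10 negative, and of -0.06 with quantile normalization, which moved the median of all genes from -0.08 to 0.03. Mlc1, Apoe and Glul were separated upwards, against 2.71% of all genes and 4.48% of those at or above 0.75 of the input. All 22 markers lay in that last set. Apoe, the main lipoprotein of the brain, was at 16010, 15510 and 11019 FPKM against 19951, 16057, 20660 and 18301, parted by 47 FPKM. Glul, which makes glutamine from glutamate, was at 4981, 4961 and 4235 against 5413, 5096, 5536 and 5334 FPKM, and its difference of 0.18 turned to -0.05 with quantile normalization. Gja1, which encodes the gap junction protein connexin 43, had a difference of 0.00 ± 0.12 (SE; 0.09 with median-ratio scaling), Aldh1l1 of 0.07 ± 0.10 (-0.08 with quantile normalization) and Slc1a2, the main glutamate transporter, of -0.10 ± 0.15. Their 2-sided limma tests did not pass, which does not show that they are equal.

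Genes of the reactive state leaned upwards by little. Of 31 listed, 11 were tested, with a median of 0.12. Vim, Aspg and H2-D1 were separated upwards, against 2.71% of all genes and 4.48% of those at or above 0.75 of the input. Of the 11, 9 lay at or above that ratio. Aspg and H2-D1 were parted by 0.2 FPKM each. Vim, the intermediate filament vimentin, was at 64.5, 80.8 and 67.5 FPKM in normal rearing and at 92.3, 85.0, 98.8 and 87.9 in the dark (log2 difference 0.36 ± 0.11 SE, limma adjusted p = 0.339). Gfap, the filament whose promoter drives the Cre, was at 538, 595 and 405 against 571, 546, 656 and 555 FPKM, with overlap. Serpina3n, a serine protease inhibitor induced by inflammation, was at 57.2, 29.0 and 27.8 against 7.3, 8.6, 61.8 and 7.5 FPKM, so dark-reared replicate 5 went against the other 3. C3 was listed at 0 in every library.

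Antioxidant genes gave 5 separated upwards and 1 downwards among 21 tested, against 2.71% and 9.02% of all genes and 4.48% and 4.06% of those at or above 0.75 of the input, where 19 of the 21 lay. Their median was 0.14. Without dark-reared replicate 4, 11 were separated upwards, against 6.79% of all genes, and without normally reared replicate 2, 9, against 7.31%. Gpx8, a peroxidase of the endoplasmic reticulum, was at 20.1, 24.2 and 21.0 FPKM against 30.6, 26.9, 25.8 and 28.7, and Nqo1, a quinone reductase under the factor Nrf2, was at 13.1, 14.3 and 12.6 against 15.6, 16.9, 16.6 and 16.1. Prdx6, Gpx1 and Hmox1 were also separated upwards, and Srxn1 downwards. These margins were narrow: the nearest libraries of the groups stood at a ratio of 1.01 for Prdx6 and Hmox1, 1.02 for Gpx1 and 1.04 for Srxn1. For Gpx8 and Nqo1 the ratio was 1.07 and 1.09. In the input pair the antioxidant list had a median of 0.69. Thbs4, a thrombospondin that promotes synapse formation, was at 12.6, 23.1 and 22.4 against 25.3, 27.6, 27.7 and 28.9 FPKM. It was the one separated member of 22 tested synapse regulators, against 2.71% of all genes separated upwards. The median of these regulators was -0.06 (0.03 with median-ratio scaling).

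Clock genes included separated ones in both directions. Dbp, an output factor of the circadian clock, was at 173, 136 and 134 FPKM in normal rearing and at 223, 195, 213 and 198 in the dark (log2 difference 0.49 ± 0.12 SE, limma adjusted p = 0.339). It passed the threshold, as the one higher gene of 119 called, when normally reared replicate 1 was left out (log2 difference 0.61). Arntl, which encodes the activator BMAL1, was at 10.5, 11.1 and 14.2 against 8.0, 8.2, 7.6 and 8.7 FPKM, and its partner Clock at 2.6, 2.7 and 3.5 against 1.5, 2.3, 1.8 and 2.1. Nfil3, which represses the genes that Dbp activates, was at 1.6, 2.5 and 2.7 against 0.9, 0.9, 1.2 and 1.1 FPKM. With Rorb these gave 4 of 19 separated downwards and 1 upwards, against 9.02% and 2.71% of all genes. Without dark-reared replicate 1, 2 were separated upwards, against 3.67%. Rorb also stands on the list of excitatory neuron markers, and Nfil3 on that of the immediate early factors. Per1, Per2, Nr1d1, Cry1 and Cry2 overlapped. The labels give no hour of collection, and the lighting schedule differs by design, so time of day and rearing cannot be told apart here.

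Other astrocyte pathways lay near 0. Cholesterol synthesis had a median of 0.03 over 24 genes (-0.02 after rescaling without Rn45s). Tm7sf2, Nsdhl and Dhcr7 were separated upwards, against 2.71% of all genes and 4.48% of those at or above 0.75 of the input. Of the 24, 23 lay at or above that ratio. Nsdhl and Dhcr7 were parted by 0.6 and 0.4 FPKM. Glycolysis and lactate transport had a median of -0.03 over 24 (0.06 with median-ratio scaling). Slc2a1, the glucose transporter of glia and vessels, was at 56.8, 53.6 and 57.6 FPKM against 69.3, 68.3, 69.4 and 65.1, while Pfkp, a phosphofructokinase, was at 51.3, 53.6 and 61.1 against 38.3, 44.6, 47.2 and 45.6. Among Notch and Hedgehog genes, with a median of -0.01 over 16 (0.14 with quantile normalization), the Notch targets Heyl and Hes1 separated in opposite directions, Heyl at 3.4, 3.4 and 3.0 against 4.7, 4.4, 4.9 and 4.2 FPKM and Hes1 at 14.7, 16.8 and 13.4 against 12.3, 10.8, 11.3 and 12.0. Kcnj10, the channel through which astrocytes clear potassium, was at 346, 329 and 363 against 256, 322, 324 and 284 FPKM. Each of these had a limma adjusted p of 0.339 or above. Over 13 settings of scaling, pseudocount, covariate and left-out library, the sign of the median turned in 2 for cholesterol synthesis, 2 for glycolysis and 7 for Notch and Hedgehog. Oligodendrocyte markers had a median of 0.06 and overlapped. Without normally reared replicate 3 it was 0.29, with 1 of 12 negative and 4 separated upwards, against 4.86% of all genes. Without dark-reared replicate 1 it was 0.30, with 3 separated upwards, against 3.67%. With the neuron marker covariate the median was 0.76. It turned to -0.12 without normally reared replicate 1, to -0.07 without dark-reared replicate 6 and to -0.01 without dark-reared replicate 5. The endothelial markers Ly6c1 and Cldn5 were separated upwards at levels of 0.5 to 4.3 FPKM, highest in dark-reared replicate 1. They were 2 of 5 tested members of the endothelial and mural list, against 2.71% of all genes.

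**Figure D5:**
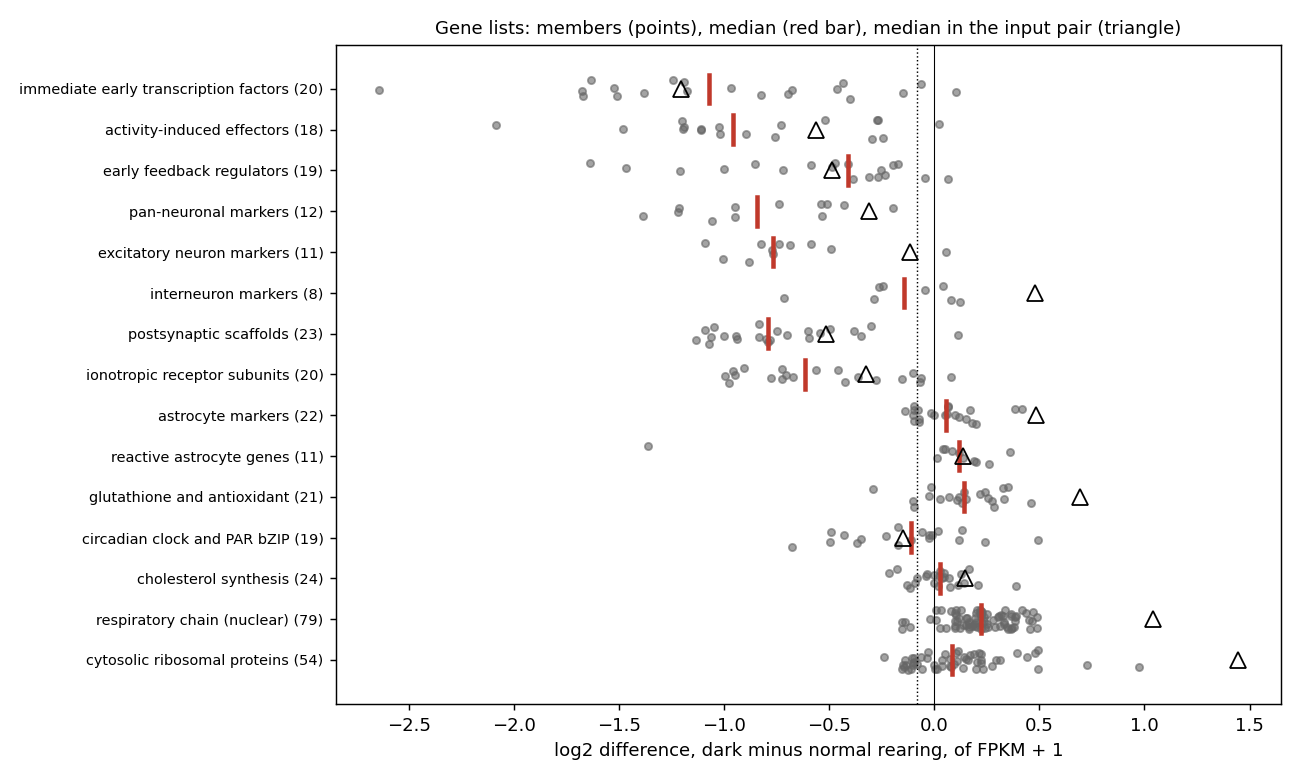
Difference between dark and normal rearing on the log2 scale for each tested member of 15 gene lists (grey points), with the list median as a red bar, the median in the single input pair as a triangle, the number tested in parentheses and the median of all genes as a dotted line at -0.08. The 3 activity lists and the excitatory, pan-neuronal, scaffold and receptor lists lie to the left, and astrocyte lists lie near 0.

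In the input pair, with 1 library per group and so no test, 784 of 12475 genes above 1 FPKM (6.28%) were more than 2-fold lower in the dark and 531 (4.26%) more than 2-fold higher. Among the 20 tested immediate early factors 12 were more than 2-fold lower. The largest difference among the named activity genes was that of Arc. The mean of the neuron markers was 6.40 in the normal input and 6.37 in the dark input on the log2 scale, and the mean of the immediate early factors was 5.17 and 4.02.

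The difference in the dark was set against that of another deprivation in the series, 2 days of monocular deprivation at postnatal day 28, with 3 pulldowns contralateral and 3 ipsilateral to the deprived eye. These libraries share none with the rearing comparison. The difference of the 2 effects passed the adjusted threshold for 0 of 11562 genes in limma (0.00%) and for 116 at an unadjusted p under 0.05 (1.00%). With the monocular replicate numbers as a block, 1 gene passed (0.00865%), Etnppl, an astrocyte enzyme that breaks down phosphoethanolamine, with a difference of -0.95, and 738 had an unadjusted p under 0.05 (6.38%). Fos was at 5.9, 4.9 and 9.7 FPKM contralaterally and 13.2, 24.2 and 30.5 ipsilaterally, a log2 difference of -1.57 ± 0.36 (SE), against -2.64 for dark rearing. The difference between these was -1.07 ± 0.50 (SE, limma adjusted p = 1.0). Both SE values come from the fit without the block, and with the block the second was 0.43. Over the 3 activity lists the median difference was -0.33 for monocular deprivation, with 54 of 56 negative, and -0.73 for dark rearing, with 54 of 57 negative. Over all genes the monocular median was -0.06. Negative signs were not particular to the activity lists. Monocular differences were negative in 24 of 24 cholesterol synthesis genes and 22 of 24 glycolysis genes, but in 3 of 11 excitatory neuron markers. The pan-neuronal median was 0.05 for monocular deprivation, with 5 of 12 negative, and -0.84 for dark rearing. The differences between these list medians were not tested.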

How the data were processed

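RNA of ribosome pulldowns and inputs from mouse visual cortex was analysed as FPKM per gene. Per the submitters' processing notes the build was mm10 and the tools included STAR 2.5.1b and HOMER 4.10, whose roles are not given in the sources used here. The authors deposited 1 table of FPKM, rounded to 0.1, with 24537 rows and no counts. One column of per-sample values of another sample was not used, and 26 gene names turned into dates were restored. The scale was log2 of FPKM plus a pseudocount of 1, a gene needed an average over 1 FPKM, and limma 3.58.1 (R 4.3.3, trend and robust moderation) was fitted to the 7 pulldowns without covariates, with Benjamini-Hochberg adjustment at 0.05. The difference of effects was fitted without pairing to all 16 pulldowns in the table. These include 3 from mice at postnatal day 120 after 10 days in the dark, which enter the filter and the shared spread. In an alternative fit same-numbered monocular libraries were blocked as pairs, because their deviations correlated at 0.79 to 0.90. The rearing fit was run on simulated data with independent noise and effects larger than most reported here. That run does not show how well smaller effects are detected. Alternatives changed the pseudocount (0.1, 5), filter (none, 5), scaling, weights, covariates and libraries. Gene coordinates are from GENCODE on GRCm38 and promoters from RefSeq. Members and lists were chosen with earlier results of these data known. The genes named are the 15 with the smallest p in each direction and the leading members of each list. Others, such as Etnppl, were chosen after their values were seen. Replicates are called biological per the labels, without the animals each holds, so p-values measure the spread between these libraries. A few genes are not reported here.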

Additional observations from a re-analysis of the deposited data

Results flagged for a closer look

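Of 157 values examined in the 4 dark-reared libraries, 14 (8.92%) had 1 library far from the other 3 by Dixon's criterion, which chance alone meets in about 1 in 20 groups. Dark-reared replicate 1 stood apart most often. It was low in Rorb (8.4 FPKM against 12.5 to 13.2), Gpr17 (13.6 against 24.2 to 26.0), Lpl (0.3 against 0.6) and Bmp6 (1.4 against 1.9 to 2.0), and high in Ctss (2.8 against 1.2 to 1.3). Its mean log2 level of the microglia markers was 2.40 against 1.67 to 1.75, of the BMP and Id genes 3.87 against 4.05 to 4.07, and of the sex-linked genes 2.03 against 2.32 to 2.37. Dark-reared replicate 5 was high in Serpina3n (61.8 FPKM against 7.3 to 8.6), low in Ppp1r37 (19.5 against 21.4) and high in the mean of the glycolysis genes (6.55 against 6.53). Dark-reared replicate 4 was high in Gja1 (676.4 FPKM against 538.7 to 548.1) and Chrdl1 (28.2 against 19.6 to 20.4), and dark-reared replicate 6 was low in Gpc4 (10.2 against 11.2 to 11.4).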

How the results depend on the processing

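The count of called genes, 1 as reported, was 2 with Rn45s as a covariate, with array weights (in each case Fos and Dusp1) and with no filter (Fos and the microRNA gene Mir132). It was 0 with neuron markers as a covariate, with a pseudocount of 5 and among genes at or above 0.75 of the input. Leaving out 1 library gave 0 to 119 called genes, 0 to 118 lower and 0 to 1 higher. The 119 came without normally reared replicate 1, and 1 of them was at or above 0.75 of the input, 11 were in the activity lists and 9 in the scaffold list. Fos kept its direction in every setting run. It missed the threshold with neuron markers as a covariate (-1.94, limma adjusted p = 0.135) and with a pseudocount of 5 (-2.195, adjusted p = 0.0841), and without 1 library it ranged from -2.97 to -2.33, with adjusted p from 0.00172 to 0.437. The cause of these changes was not tested.

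No paired analysis was possible because the rearing groups share only replicate number 1. For the difference of effects, the replicate block of the monocular numbers gave 1 called gene in place of 0, and leaving out 1 library gave 0 to 1.

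Over the named genes reported and all settings, 2351 values kept their sign and side of the threshold, 22 passed it in addition and 7, those of Fos, no longer did. Some differences changed sign. Those reported furthest from 0 did so with neuron markers as a covariate: Rn45s (2.155 as reported), Hsph1 (-0.745), Gabra3 (-0.726), Cck (-0.714), Lpl (-0.65) and Crtac1 (-0.428). The others were reported at -0.371 to 0.263. With that covariate the values were 0.309 for Cck, 0.033 for Pdgfra, 0.238 for Lhfpl3, 0.119 for Gpr17, 0.028 for Hsph1, -0.020 for Lgi4, -0.095 for Slc7a10, 0.056 for Fxyd7, -0.024 for Clu, 0.255 for Lpl, 0.360 for Crtac1, 0.015 for Insr, 0.027 for Gabra3, -0.041 for Gfap, 0.183 for Gja1, -0.122 for Aldh1l1, 0.001 for Chrdl1, 0.013 for Gpc4 and -1.314 for Rn45s. With quantile normalization they were -0.048 for Glul, -0.054 for Clu, 0.007 for Kdm5d, -0.083 for Aldh1l1 and 0.038 for Gpc4. With Rn45s as a covariate they were 0.055 for Crtac1, 0.097 for Gja1 and -0.020 for Aldh1l1, and with median-ratio scaling 0.088 for Gja1 and 0.048 for Igfbp2. Leaving out 1 library gave -0.083 to 0.074 for Gja1, -0.195 to 0.046 for Igfbp2, -0.391 to 0.029 for Csf1r, -0.243 to 0.067 for Gjb6 and -0.007 to 0.119 for Aldh1l1. With 3 and 4 libraries and no counts, small changes of low genes were not detectable at this depth.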

Other observations

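Among glucocorticoid-responsive genes, Tsc22d3, which encodes the steroid-induced protein GILZ, was at 99.4, 444 and 87.3 FPKM in the normally reared pulldowns and at 101, 146, 116 and 242 in the dark-reared ones. Sgk1, a kinase induced by steroids, was at 7.0, 22.6 and 13.0 against 4.9, 10.3, 10.9 and 29.8 FPKM. Fkbp5, a co-chaperone of the steroid receptor, was at 1.3, 5.7 and 2.5 against 1.2, 1.5, 1.5 and 2.0 FPKM. Normally reared replicate 2 was the highest of its group in all 3 genes and dark-reared replicate 6 the highest of the other group. The 17 tested genes of this list had a median difference of -0.15. Pdk4 and Zbtb16 were separated downwards and none upwards, against 9.02% and 2.71% of all genes. The median turned to 0.07 without normally reared replicate 2, with 4 separated upwards, against 7.31% of all genes. It turned to 0.08 with the neuron marker level as a covariate. It was -0.42 without normally reared replicate 1, with 5 separated downwards, against 25.8%. Pdk4, which keeps pyruvate from the mitochondrial oxidation route, was at 27.4, 31.0 and 33.8 against 20.7, 26.0, 23.7 and 25.9 FPKM, with a pulldown level above its input.

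Ionotropic glutamate and GABA receptor subunits had a median of -0.62, with 19 of 20 negative and 5 separated downwards. Over all genes 65.3% had a negative difference and 9.02% were separated downwards. Below 0.75 of the input, where all but 3 of the 20 lay, these shares were 88.0% and 15.9%. The subunits' median was -0.32 without normally reared replicate 3 and 0.11 with the neuron marker level as a covariate. Without dark-reared replicate 4, 10 were separated downwards, against 14.3% of all genes, and without normally reared replicate 1, 9, against 25.8%. Long noncoding RNAs had a median of -0.51 over 9 in the pulldowns, with none separated, and of -1.56 in the input pair. The pulldown median was -0.27 without normally reared replicate 2. Without normally reared replicate 1, 3 were separated downwards, against 25.8% of all genes, and without dark-reared replicate 6, 2, against 13.2%.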
